A study of Mus musculus with 3 samples.

Results

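The 10 genes described here encode CXC chemokine ligands, small secreted or membrane-bound proteins that attract leukocytes, and include Cxcl5. They were chosen by gene symbol with the values on these arrays already known, so their differences between arrays are a description and carry no test. They make up 10 of the 19505 gene symbols on the array, and each was read from 1 transcript cluster, the set of probes assigned to a gene, of 22206 in all.

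AT2 cells make the surfactant of the alveoli and were sorted here from the lungs of female Sftpc/GFP mice (CBA/Ca × C57BL6J), with gates on high GFP and high EpCAM, a protein on the surface of epithelial cells. The GFP of this line is strong in AT2 cells and weak in a few cells of the bronchioalveolar duct junction and the terminal bronchioles. Mice were 9 to 11 weeks old and breathed mainstream CS through the nose 60 minutes daily on 5 days of each smoke week, in 3 weeks of a 5-week protocol. In the continuous CS group these were the last 3 weeks, in the intermittent CS group they alternated with weeks of air and opened and closed the protocol, and age-matched controls breathed air. Cells were taken 24 hours after the last exposure, those of 3 mice were pooled, and 100 ng of RNA went on 1 GeneChip Clariom S array for each exposure. There is therefore no replicate, and no p-value or error can be given for any difference between exposures.

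CXC ligands signal through G protein-coupled receptors on the cells they attract. Those with an ELR motif before their first cysteines, among them Cxcl1, Cxcl2, Cxcl3, Cxcl5 and Cxcl15 of the mouse, draw neutrophils. Cxcr2 is the main receptor of Cxcl1, Cxcl2, Cxcl3 and Cxcl5, and several of these genes are classical targets of NF-kappaB and of interleukin-17 signaling. Cxcl9 and Cxcl10 are induced by interferons and attract T cells through Cxcr3, while Cxcl12, Cxcl16 and Cxcl17 are made without inflammation in many tissues. In the lung, the alveolar epithelium is a known source of Cxcl5 and of Cxcl15, whose other name is lungkine.

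The values are log2 levels as deposited, and a level of one gene cannot be set against that of another because their probes differ. Signal without expression was estimated with 1414 receptor clusters, olfactory and vomeronasal, genes of sensory neurons, whose 95th percentile lay between 5.14 and 5.19 and is called the olfactory level below. Of these clusters, 99% differed by less than 1.85-fold between continuous CS and air, 1.76-fold between intermittent CS and air, and 1.68-fold between the CS arrays. This olfactory range comes from signal without expression. It gives neither the spread of expressed genes nor that between pools of mice, and lying inside or past it is no test. The median over all clusters differed by 0 in each pair. All 11 measured AT2 markers were above the olfactory level on every array, and 6 of them, among them Sftpc, stood at the highest value of the table, 19.93, where no difference can be read. Some markers of neighbouring epithelial cells were also high, such as Scgb1a1 of club cells with 19.61 on every array and Ager of AT1 cells with 18.08 in air. Others were not, with Muc5b at 4.87 and Ccdc113 at 3.14 in air, both airway markers below the olfactory level. Pdpn of AT1 cells had 9.36 in air. The share of such cells in the sort cannot be read from these levels.

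Of the 10 ligands, Cxcl5 was lower than in air after both exposures and Cxcl17 was higher after both, each at least 2-fold. Cxcl2 was higher after continuous CS and Cxcl1 after intermittent CS. The values of Cxcl15 were nearly equal but close to the ceiling of the table, and both interferon-induced ligands lay at or near the level without signal. Against air, 2 ligands were at least 2-fold higher after continuous CS, beside 1.13% of all clusters, and 1 was lower, beside 0.473%. After intermittent CS 2 were higher, beside 0.833%, and 1 was lower, beside 0.716%. Between the CS arrays none was higher on the intermittent array, beside 0.117%, and 1, Cxcl2, was lower, beside 0.635%. Because the ligands were chosen with these differences known, nothing is read from these shares. Just inside the 2-fold threshold stood Cxcl17 with 2.01-fold and just outside it Cxcl10 with 1.99-fold, both continuous CS against air. The air value of Cxcl10 was below the olfactory level, so that its fold is a bound of at least 1.29. Both smoke arrays were compared with the same air array, so a deviation of that array enters both comparisons.

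**Figure D1:**
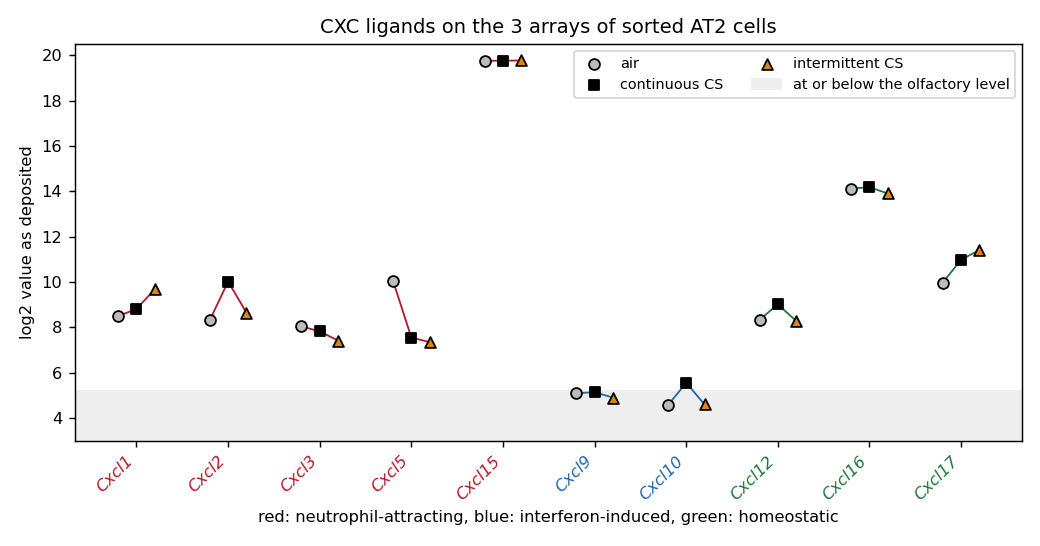
Log2 value as deposited (vertical axis) of the 10 CXC ligands (horizontal axis) on the air array (circles), the continuous CS array (squares) and the intermittent CS array (triangles), 1 pooled array each, with the range at or below the olfactory level shaded. Cxcl5 drops from 10.05 to 7.55 and 7.35, Cxcl15 stays at about 19.8, and Cxcl9 lies in the shaded range on every array.

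Cxcl5, which attracts neutrophils through Cxcr2, had a value of 10.05 in air-exposed cells, 7.55 after continuous CS and 7.35 after intermittent CS. Both smoke arrays were low and the air array stood alone above them. The difference to air was -2.50 on the log2 scale after continuous CS, a 5.67-fold lower level, and -2.71 after intermittent CS, 6.52-fold lower. Of the 22206 clusters, Cxcl5 ranked 8 from the lowest in the former comparison and 6 in the latter. The CS arrays differed by 1.15-fold, inside the range of the olfactory clusters. All 3 values lay above the olfactory level, so that these folds are measured on both sides and are not bounds.

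The genes closest to Cxcl5 in pattern were found by the Euclidean distance between the pairs of log2 differences to air, over 10518 named genes above the olfactory level on the 3 arrays. Glipr2 was nearest, at a distance of 0.096, with 10.71 in air, 8.28 after continuous CS and 7.94 after intermittent CS. Next came Nfil3 at 0.370 and Cry1 at 0.395, a transcriptional repressor of the clock output and a core repressor of the circadian clock. Of the candidates these 3 lay within 0.5, and Tmem171 and Fam71a followed at 0.540 and 0.557. Genes with a value below the olfactory level on any array were not among the candidates.

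Clock genes as a list differed between the air array and both smoke arrays. Of 17 measured, 8 were at least 2-fold higher and 5 lower after continuous CS, and 8 were higher and 4 lower after intermittent CS, with none 2-fold apart between the CS arrays. Dbp, a clock output factor, had 9.67 in air, 18.02 after continuous CS and 17.93 after intermittent CS. Arntl, the clock activator, had 12.03, 7.01 and 6.56 in the same order. The summed linear level of the list was 118000 in air, 424000 after continuous CS and 389000 after intermittent CS. On the smoke arrays this sum is mostly Dbp, and in air it is mostly Bhlhe40, with 16.15 there. The sum was high where Cxcl5 was low, while Arntl was low on the same arrays as Cxcl5. The sources used here give no time of day at which the cells were taken. The part of these genes, or of the hour, in the lower Cxcl5 was not tested.

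Cxcl1, a neutrophil attractant also called KC, had 8.50 in air, 8.81 after continuous CS and 9.69 after intermittent CS. The intermittent array was the high one, and air and continuous CS differed by 1.24-fold, inside the olfactory range. Intermittent CS against air gave 1.19 on the log2 scale, 2.28-fold higher, and intermittent against continuous CS gave 0.88, 1.84-fold higher.

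Cxcl2, also called MIP-2, had 8.32 in air, 10.02 after continuous CS and 8.65 after intermittent CS. Here the continuous array stood out, the reverse of Cxcl1. Continuous CS against air gave 1.70 on the log2 scale, a 3.24-fold higher level that ranked 41 from the highest of all clusters. Intermittent CS against continuous CS gave -1.37, 2.58-fold lower, while intermittent CS and air differed by 1.26-fold.

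Cxcl3, a further Cxcr2 ligand, had 8.04 in air, 7.82 after continuous CS and 7.42 after intermittent CS. Its lowest value was on the intermittent array, and no pair of arrays was further apart than 1.54-fold, inside the olfactory range of that pair.

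Cxcl15, which recruits neutrophils in the mouse lung, had 19.76 in air, 19.76 after continuous CS and 19.77 after intermittent CS. The air and continuous CS values were equal, as in 24.3% of all clusters, and the third was 0.01 above them. The level lay 0.159 below the highest value the table holds, 19.93, so a higher level could hardly have been read. In pattern, 2957 of the 10518 genes lay within 0.1 of Cxcl15, Cep57, Usp19, Vps45, Slc25a32 and Il17re being nearest.

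The neutrophil-attracting ligands thus went different ways, and their median log2 difference was 0.00 for continuous CS against air, 0.01 for intermittent CS against air and -0.20 between the CS arrays. In both comparisons with air this median is the value of Cxcl15, which lay close to the ceiling of the table. Between the CS arrays it is the value of Cxcl5. The medians therefore do not describe the group as a whole. All 5 neutrophil-attracting genes lie next to one another on mouse chromosome 5, in the order Cxcl5, Cxcl3, Cxcl15, Cxcl1 and Cxcl2, with the platelet chemokine genes Ppbp and Pf4 between Cxcl5 and Cxcl3. On one flank Rassf6 had 7.68, 7.65 and 7.68, and on the other Mthfd2l had 6.70, 6.98 and 6.70 on the air, continuous CS and intermittent CS arrays. Neither neighbour differed as Cxcl5 or Cxcl2 did.

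**Figure D2:**
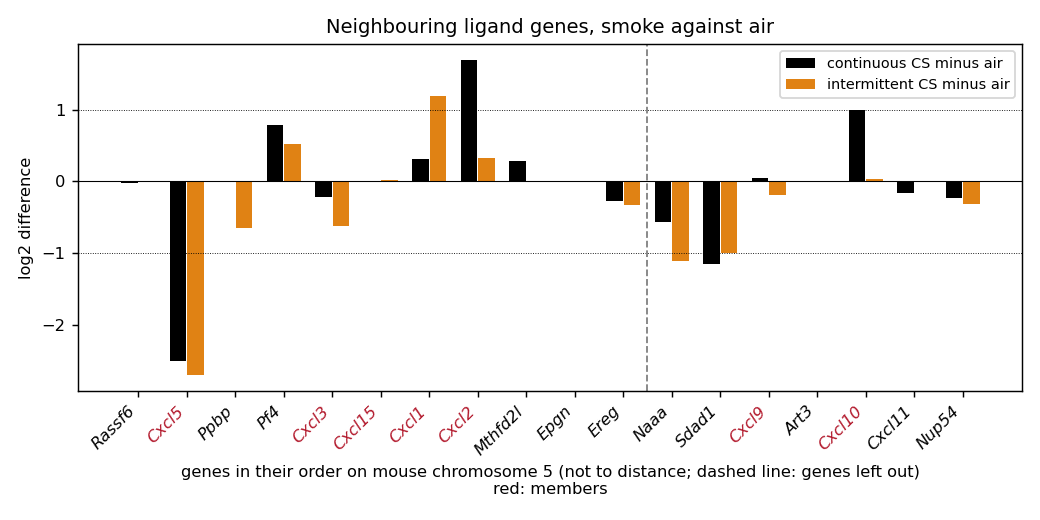
Log2 difference to air (vertical axis) after continuous CS (black) and intermittent CS (orange) for measured genes in their order along mouse chromosome 5, not to distance, with members in red letters and dotted lines at 2-fold. Cxcl5 is at -2.50 and -2.71 while its neighbour Rassf6 is near 0, and Cxcl1 and Cxcl2 are high on different arrays.

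The promoters of Cxcl1, Cxcl2, Cxcl3 and Cxcl15 are shown because these genes are neighbours whose values differed in pattern over the arrays. The stretches are the 100 bases before the start of each gene, 5′ to 3′ on the plus strand, from RefSeq on GRCm38.p6, at chr5:90891145-90891244 for Cxcl1, chr5:90903799-90903898 for Cxcl2, chr5:90786001-90786100 for Cxcl3 and chr5:90794434-90794533 for Cxcl15. Capitals mark the kappaB motif GGAATTTCC, a form of the NF-kappaB site.
Cxcl1: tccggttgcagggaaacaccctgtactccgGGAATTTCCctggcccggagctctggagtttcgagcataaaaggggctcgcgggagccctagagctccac
Cxcl2: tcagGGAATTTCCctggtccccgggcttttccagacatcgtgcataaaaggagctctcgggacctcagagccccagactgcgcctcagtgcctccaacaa
Cxcl3: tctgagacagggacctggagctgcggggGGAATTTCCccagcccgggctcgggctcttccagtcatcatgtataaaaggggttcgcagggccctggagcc
Cxcl15: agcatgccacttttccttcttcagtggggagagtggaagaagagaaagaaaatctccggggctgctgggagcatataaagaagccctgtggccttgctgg
The table of promoters held 7 of the 10 members, not Cxcl5, Cxcl16 or Cxcl17. The motif was searched on both strands of the 250 bases before the start and lay 70 to 62 bases before the start of Cxcl1, 96 to 88 before that of Cxcl2 and 72 to 64 before that of Cxcl3. It occurred in 94 of 32851 promoters of this length, 0.286%. An E-box CACGTG, the motif of clock activators, lay 155 to 150 bases before the start of Cxcl3 and in 6.02% of all promoters. A match of letters is a description of the sequence and not a measured site.

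Among genes that take part in NF-kappaB and interleukin-17 signaling upstream, 13 of 16 listed were measured and none was 2-fold apart between any pair of arrays. Of 20 listed targets, 2 were higher and 1 lower after continuous CS, 2 were higher and 1 lower after intermittent CS, and 1 was higher and 1 lower between the CS arrays. The median log2 difference of the targets was 0.14, 0.00 and 0.00. Saa3, an acute phase protein, had 5.71 in air, 10.36 after continuous CS and 11.11 after intermittent CS, high on both smoke arrays like Cxcl17. Il1b, the inflammatory cytokine, had 11.24, 12.10 and 10.18, highest on the continuous array like Cxcl2. Il6, another cytokine, went the other way with 8.24, 6.76 and 7.80, lowest on the continuous array. Tnfaip3 had 11.37, 12.64 and 12.22, above air on both smoke arrays. Csf2, a growth factor of macrophages picked out after its values were seen, had 8.72, 9.03 and 9.90, close to the differences of Cxcl1.

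Cxcl9, the interferon-induced T cell attractant, had 5.09 in air, 5.14 after continuous CS and 4.90 after intermittent CS. All 3 values lay below the olfactory level, and no difference can be read from them.

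Cxcl10, the other Cxcr3 ligand, had 4.56 in air, 5.55 after continuous CS and 4.60 after intermittent CS. It lay above the olfactory level on the continuous array only, which gives a level at least 1.29-fold higher than in air and at least 1.33-fold higher than after intermittent CS. The measured values differed by 1.99-fold and 1.94-fold in these pairs.

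The Cxcl10 promoter is shown because it carries the interferon motif next to the kappaB motif, from RefSeq at chr5:92348890-92349109 on the minus strand of GRCm38.p6. Capitals mark the core of the interferon-stimulated response element, searched as GAAANNGAAA on both strands, and the kappaB motif read from the other strand.
Cxcl10: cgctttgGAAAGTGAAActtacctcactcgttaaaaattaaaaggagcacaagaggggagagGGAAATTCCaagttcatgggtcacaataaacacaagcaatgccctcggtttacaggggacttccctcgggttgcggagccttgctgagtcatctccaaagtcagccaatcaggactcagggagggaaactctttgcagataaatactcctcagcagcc
The former lay 213 to 204 bases before the start and occurred in 2.98% of all promoters, and the latter lay 158 to 150 bases before it. None of the motifs searched was found in the stretches of Cxcl9, Cxcl12 or Cxcl15.

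Of 21 measured interferon response genes none was 2-fold apart between continuous CS and air, and 3 were at least 2-fold lower after intermittent CS than in air. On the air, continuous CS and intermittent CS arrays, 5, 4 and 6 of the 21 lay below the olfactory level. Tap1, a peptide transporter of antigen presentation, had 12.17 in air, 11.41 after continuous CS and 10.42 after intermittent CS. Igtp, an interferon-induced GTPase, had 8.32, 7.77 and 6.78, and its relative Iigp1 had 7.67, 6.86 and 6.25. The list's median was 0.00 for continuous CS against air, -0.07 for intermittent CS against air and -0.32 between the CS arrays. These 3 genes were lower on the continuous CS array than in air, where the value of Cxcl10 was higher. Of the 21 genes, 6 were higher after continuous CS than in air and 9 lower. Ifit3, an interferon-induced antiviral protein named after its values were seen, had 7.92 in air, 8.92 after continuous CS and 8.18 after intermittent CS. It was highest on the continuous array as Cxcl10 was, 1.996-fold above air and so just outside the 2-fold threshold.

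Cxcl12, the ligand of Cxcr4 that holds and guides stem cells and lymphocytes, had 8.33 in air, 9.01 after continuous CS and 8.28 after intermittent CS. Its value was highest on the continuous array, 1.61-fold above air and 1.66-fold above intermittent CS, inside the olfactory range of both pairs.

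Cxcl16, a membrane-bound ligand of Cxcr6, had 14.12 in air, 14.18 after continuous CS and 13.90 after intermittent CS. No pair of arrays differed by more than 1.21-fold.

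Cxcl17, a chemokine of mucosal surfaces that attracts monocytes and macrophages, had 9.97 in air, 10.98 after continuous CS and 11.41 after intermittent CS. Both smoke arrays were above the air array. Continuous CS against air gave 1.01 on the log2 scale, 2.01-fold higher, and intermittent CS against air gave 1.44, 2.71-fold higher, ranking 58 from the highest of all clusters. The CS arrays differed by 1.35-fold, inside the olfactory range.

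The homeostatic ligands had a median log2 difference of 0.68 for continuous CS against air, -0.05 for intermittent CS against air and -0.28 between the CS arrays. The interferon-induced ligands had 0.52, -0.08 and -0.60, values that rest on signals below the olfactory level: with low values raised to that level the first was 0.17 and the last -0.21. The medians of the neutrophil-attracting ligands are given above. Over all 10 the medians were 0.18, -0.02 and -0.26. Past the range that holds 99% of the olfactory clusters stood 3 members for continuous CS against air (Cxcl2, Cxcl5 and Cxcl17), 3 for intermittent CS against air (Cxcl1, Cxcl5 and Cxcl17) and 2 between the CS arrays (Cxcl1 and Cxcl2), where 2.27%, 2.91% and 1.92% of all clusters lay. Cxcl10 is not counted, since only bounds inside the range can be given for it. The shares of all clusters leave out no such cases, and counted in that way the members were 4, 3 and 3.

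**Figure D3:**
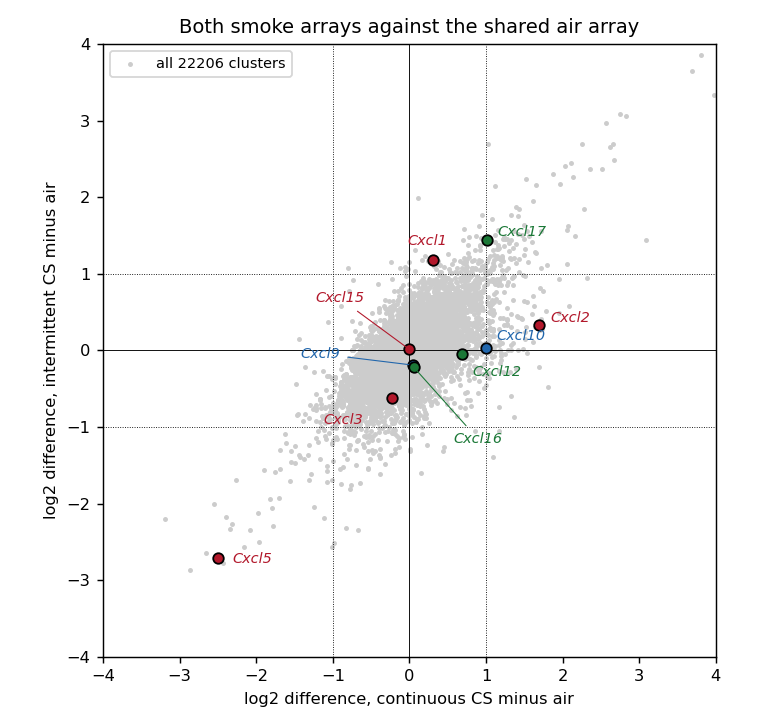
Log2 difference to air after continuous CS (horizontal axis) and after intermittent CS (vertical axis) for all clusters (grey, 6 of them outside the axes) and the 10 ligands (red neutrophil-attracting, blue interferon-induced, green homeostatic), with dotted lines at 2-fold. Both axes share the air array. Cxcl5 lies at the lower left, Cxcl17 at the upper right, Cxcl2 to the right and Cxcl1 above the origin.

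The other CXC ligands on the array, Pf4, Ppbp, Cxcl11, Cxcl13 and Cxcl14, were not 2-fold apart in any pair. Ppbp and Cxcl11 lay below the olfactory level on every array, and Cxcl14, with 5.14 on each, was above it on 1. No difference can be read from these genes. Pf4 had 7.30 in air, 8.09 after continuous CS and 7.82 after intermittent CS, inside the olfactory range of each pair. Among 9 receptors of CXC ligands, 2 were at least 2-fold higher after continuous CS than in air and the same 2 were lower after intermittent CS than after continuous CS. Cxcr2, the neutrophil receptor of Cxcl1, Cxcl2, Cxcl3 and Cxcl5, had 5.67 in air, 6.99 after continuous CS and 5.08 after intermittent CS, the last of these below the olfactory level. Cxcr4, the receptor of Cxcl12, had 7.23, 8.48 and 7.19. Both receptors were highest on the continuous array, as Cxcl2, Cxcl10 and Cxcl12 were.

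Markers of several other cell types were also higher after continuous CS. Of 14 measured endothelial markers 13 were higher after continuous CS than in air, 6 of them at least 2-fold, and their summed linear level was 11200 in air, 23000 after continuous CS and 10600 after intermittent CS, with none below the olfactory level. The 13 fibroblast and smooth muscle markers summed to 13200, 23800 and 11500, with 4 at least 2-fold higher after continuous CS and 2, Lum and Tagln, below the olfactory level on each array. Vim was the largest part of each sum, with 13.11, 13.69 and 12.42, and Mfap4 came next with 11.66, 12.99 and 12.14. Of the 13, 10 were higher after continuous CS than in air and 1 lower. After intermittent CS 7 were higher than in air and 4 lower, although the sum was lower. The endothelial and the fibroblast sums were highest on the continuous array, where Cxcl2, Cxcl10 and Cxcl12 were also highest. In pattern Cxcl2 was closest to Ace at a distance of 0.051, then Slc43a3, Plaur, Ednrb and Fmo1 at up to 0.087, of which Ednrb is on the endothelial list. Of 10 measured AT1 markers 8 were higher after continuous CS than in air, 2 at least 2-fold, and 8 were lower after intermittent than after continuous CS. Their sums were 778000, 842000 and 808000, with none below the olfactory level. These sums are mostly Cldn18, equal on every array with 18.73, and Ager. Of 9 measured club and ciliated cell markers 6 were higher after continuous CS than in air, 2 at least 2-fold, with sums of 871000, 947000 and 907000 and 2, 1 and 2 below the olfactory level. Most of each of these sums is Scgb1a1, which was equal on every array. Scgb3a2, a secretoglobin of club cells, had 8.81 in air, 10.43 after continuous CS and 9.52 after intermittent CS. Cyp2f2 had 15.99, 17.09 and 16.62 in the same order. Tppp3 on this list went the other way, with 10.84, 9.84 and 9.39. In a sorted bulk sample fewer cells of a type and less RNA per cell cannot be told apart, and the part of endothelial, stromal, AT1 or airway cells in the values of Cxcl2, Cxcl10 and Cxcl12 was not tested.

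Leukocyte markers, 16 genes, summed to 51600 in air, 62500 after continuous CS and 49500 after intermittent CS. Most of this sum was Lcp1, with 14.79, 15.14 and 15.10. On each array 2 markers, Cd48 and Was, lay below the olfactory level. Of the 16, 11 were higher after continuous CS than in air and 3 lower, none of them 2-fold. Ptprc, a general leukocyte gene, was among the lower ones, with 10.92, 10.41 and 10.20. All 16 were lower after intermittent than after continuous CS. The 18 measured neutrophil markers summed to 138000, 84100 and 94400, of which Hdc, an enzyme of histamine synthesis, made up nearly all. Without Hdc the sums were 1650, 2230 and 976, and 6, 5 and 9 of the 18 lay below the olfactory level, among them the granule genes Ngp, Ltf, Camp, Mmp9 and Elane on every array. S100a8, an abundant neutrophil protein, had 7.64, 7.79 and 6.04, and Csf3r, the receptor of the neutrophil growth factor, had 7.87, 9.23 and 7.00. The 10 measured alveolar macrophage markers summed to 7240, 9130 and 7120, with 3, Marco, Fabp1 and Msr1, below the olfactory level on each array. Most of this sum was Chil3, with 12.05, 12.36 and 11.97. Of the 10, 3 were higher after intermittent CS than in air and 5 lower. Leaving Hdc out, the leukocyte, neutrophil and macrophage sums were highest on the continuous array, as Cxcl2 was. They were lowest on the intermittent array, where Cxcl1 was highest, but the macrophage sums there and in air were close. Cxcl5 was below air on both smoke arrays, and Cxcl17 was above air on both. The part of leukocytes in the value of Cxcl2 was not tested.

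Of 12 genes that glucocorticoids induce, 4 were at least 2-fold higher after continuous CS and 6 after intermittent CS, none was 2-fold lower, and the medians of their log2 differences were 0.74 and 0.97. Dusp1 and Ddit4 had values below air on both smoke arrays. Zbtb16, a transcription factor induced by these hormones, had 8.14 in air, 10.27 after continuous CS and 10.40 after intermittent CS, above air on both smoke arrays like Cxcl17. The part of this response in the values of Cxcl5 and Cxcl17 was not tested.

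**Figure D4:**
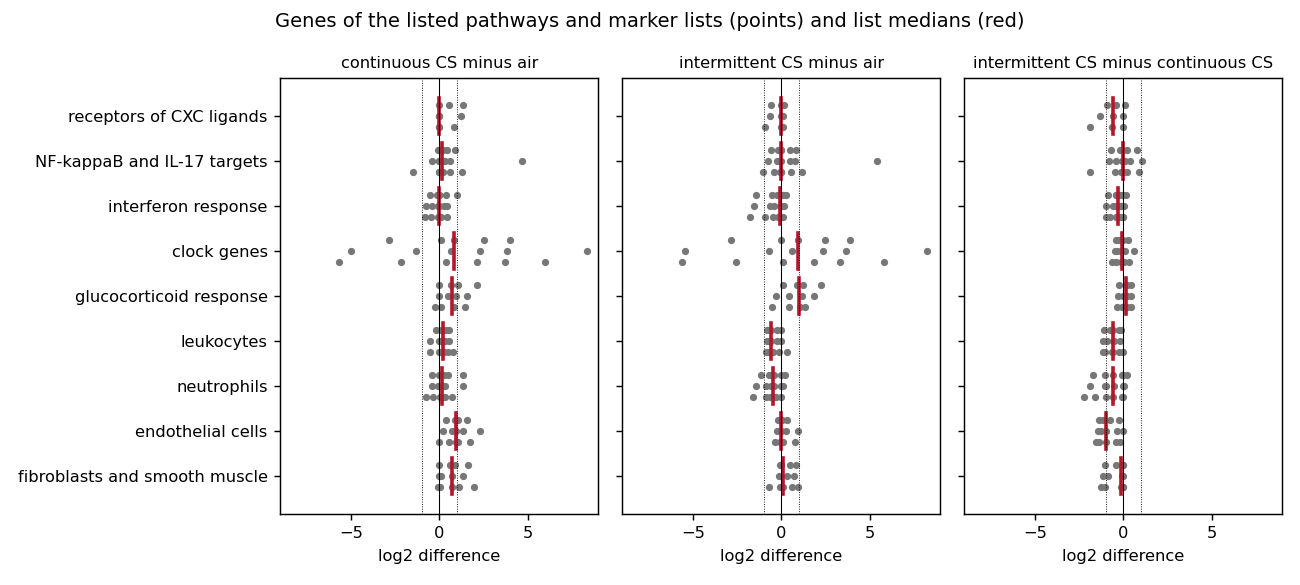
Log2 difference (horizontal axis) of single genes (points) of the listed pathways and marker lists (rows), with the list median in red and dotted lines at 2-fold, for the 3 pairs of arrays. Clock genes spread widely in both comparisons with air and not between the CS arrays, and the endothelial median is 0.94 for continuous CS against air and -0.97 between the CS arrays.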

How the data were processed

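RNA of pooled AT2 cells (3 mice per exposure) was measured on 1 GeneChip Clariom S array per exposure. The authors used the Transcriptome Analysis Console and deposited log2 values of 22206 transcript clusters. Not given in the sources used here are its version, the summarization, the normalization and the genome build behind the array. Gene symbols came from the platform annotation: 19572 clusters had 1 symbol and 2634 had none.

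The log2 values were used as deposited and differences were taken per cluster between arrays. A gene was counted as different from 2-fold on, the threshold of the study. With 1 array per exposure no test was possible, and there are no counts behind the precision of a value. A value below the 95th percentile of 1414 olfactory and vomeronasal receptor clusters (the olfactory level) on 1 array of a pair was replaced by that percentile to give a bound on the fold.

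The named genes are the 10 members, of each list at most the 4 genes with the largest difference among those at least 2-fold apart and above the olfactory level on the higher array, and the 5 genes nearest in pattern to Cxcl5, Cxcl15 and Cxcl2. Csf2, Ifit3, Scgb1a1, Ager, Cldn18, Lcp1, Ptprc, Chil3, Bhlhe40, Dusp1, Ddit4, markers named as below the olfactory level, the chromosomal neighbours and the other CXC ligands are named outside this rule. The members and lists were chosen with earlier results of these data known, and most lists follow an earlier analysis of the same arrays.

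The alternatives tried were arrays centred on their medians, quantile normalization, cyclic loess, 32 added on the linear scale, low values raised to the olfactory level, averaging of a gene's clusters, the mean of a ligand group in place of its median, and thresholds of 1.5-fold and 3-fold. The 2-fold rule was tried on simulated data with planted differences above 2-fold and normal noise as wide as the olfactory clusters between the CS arrays. The simulation held no spread between pools of mice and no floor or ceiling, so it cannot tell how the rule does on these data. The pattern search, bounds, summed levels and motif search were not tested in this way. The scalings were made with limma 3.58.1 in R 4.3.3, and all else in Python 3.11.15 (matplotlib 3.10.9, numpy 2.4.6, pandas 2.3.3).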

Additional observations from a re-analysis of the deposited data

How the results depend on the processing

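With 1 array per exposure, no sample could be left out and no spread between mice is known. No paired analysis was possible because each exposure has 1 array from its own pool of mice, and no test was made. The number of ligands at least 2-fold higher after continuous CS than in air went from 2 to 1 with median centring or with 32 added, where Cxcl17 fell just under 2-fold, and was 4 at 1.5-fold and 1 at 3-fold. After intermittent CS against air, 0 in place of 2 were higher at 3-fold and 2 in place of 1 were lower at 1.5-fold. Between the CS arrays 1 in place of 0 was higher at 1.5-fold, and 3 or 0 in place of 1 were lower at 1.5-fold and 3-fold. The median of the interferon-induced ligands for continuous CS against air was 0.26 with 32 added and 0.17 with low values raised to the olfactory level, and between the CS arrays -0.30 and -0.21. The mean in place of the median gave -0.36 for the neutrophil-attracting and 0.39 for the homeostatic ligands, intermittent CS against air. Of 30 differences of single ligands, 28 moved by less than the spread of the olfactory clusters with 32 added or with low values raised, the others being those of Cxcl10 (0.51 and 0.37 against air, -0.49 and -0.41 between the CS arrays), and 30 of 30 did so under the 3 scalings. Averaging over clusters could not change a value, since each ligand has 1 cluster. Of these differences only those of Cxcl15, at most 0.057 in size, changed sign between scalings. With low values raised, the differences of Cxcl9 for continuous CS (0.04 to -0.03) and of Cxcl10 for intermittent CS (0.04 to -0.05) against air changed sign, both arrays of each pair being below the olfactory level. Probe sequences were not used here, so signal shared between the related genes Cxcl1, Cxcl2 and Cxcl3 was not tested.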

Other observations

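Near Cxcl9 and Cxcl10 on chromosome 5, 2 genes that are not chemokines differed from air. Sdad1 had 7.28 in air, 6.13 after continuous CS and 6.28 after intermittent CS, and Naaa, a lysosomal amidase, had 8.59, 8.02 and 7.47. Both were lower on the smoke arrays, while Cxcl9 and Cxcl10 beside them lay at or near the olfactory level. Naaa and Sdad1 were singled out after their values were seen.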
